A study of Mus musculus with 2 samples.

Results

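Endothelial cells line the blood and lymph vessels of an organ, and 10 genes that mark them were followed in ureters of newborn mice treated with cyclopamine. The genes were Pecam1, Cdh5, Kdr, Flt1, Tek, Tie1, Emcn, Eng, Vwf and Cldn5, taken by symbol from the gene names of the array. They are 10 of the 30011 gene names on the array, and 14 of its 39428 probes carry their names. Of these 14 probes 12 were bright enough to be tested, and every one of the 10 genes had at least 1 such probe. A gene is represented by its brightest probe, judged by mean intensity in all 4 channels.

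The ureters came from wild-type NMRI mice at postnatal day 0 and were kept on a porous membrane for 18 h in medium with fetal calf serum. The cyclopamine group received the SMO inhibitor cyclopamine at 10 µM, where SMO is the membrane protein that passes on the sonic hedgehog (SHH) signal. The control group received solvent at 1 in 1000, which the labels give as DMF and the methods as ethanol. RNA of a small pool of ureters per group was hybridized to 2 two-color arrays, each holding 1 cyclopamine pool and 1 control pool of the same sex. Replicate 1 held female pools with cyclopamine in the red channel, and replicate 2 held male pools with cyclopamine in the green channel. Sex, dye orientation and replicate therefore cannot be told apart, and each value below is that of a pool. In RNA of whole explants, fewer endothelial cells and less RNA per endothelial cell cannot be told apart either.

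Vascular endothelial growth factor A acts on endothelial cells through the receptor KDR, while FLT1 binds the same ligand with high affinity and largely holds it back. TEK, also called TIE2, is the receptor of the angiopoietins, and TIE1 is its relative and partner. The junctions between the cells are built with VE-cadherin (Cdh5), PECAM1 and claudin 5 (Cldn5), and endomucin (Emcn), endoglin (Eng) and von Willebrand factor (Vwf) are a surface sialomucin, a co-receptor for BMP9 and BMP10, and a clotting protein of the endothelial storage granules. In the ureter the vessels run in the lamina propria and the adventitia, next to mesenchyme that answers to SHH from the urothelium.

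The treatment check came first. Gli1, a transcription factor and direct target of the pathway, had log2 ratios of cyclopamine over control of -1.83 on replicate 1 and -2.09 on replicate 2, and Ptch1, the SHH receptor, -1.13 and -1.49. Both fell (limma, adjusted p = 1.76e-08 for Gli1 and 0.000248 for Ptch1). Control pools had a 75th percentile of intensity of 3337 on replicate 1 but of 628 on replicate 2, so intensities are compared only within an array. A channel source name in the labels reads IWP-2, a blocker of WNT secretion, whereas titles and treatment entries read cyclopamine.

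The probes of Tek and Tie1 are shown because these receptors are paralogs and the probes lie in matching stretches of both genes. Shifted by 3 bases against each other, they are identical at 39 of 57 bases (68.4%), which the capitals mark. Of the 86 pairs of probes from different endothelial markers, the next most alike share 26 of 60 bases. The Tek probe lies at chr4:94540624-94540683 on the plus strand and the Tie1 probe at chr4:118144132-118144191 on the minus strand (build mm9). Whether RNA of one gene reached the probe of the other was not tested.
Tek: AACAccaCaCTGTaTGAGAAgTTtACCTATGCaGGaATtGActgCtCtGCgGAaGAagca
Tie1: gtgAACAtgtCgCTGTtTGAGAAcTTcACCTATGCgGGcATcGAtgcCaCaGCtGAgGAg

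The 2 probes of Flt1 that were bright enough to be tested are shown because their ratios differ on replicate 2. They lie 73.1 kb apart on the minus strand of mm9, the brightest at chr5:148373791-148373850 and the other at chr5:148446872-148446931. The first 30 bases of each are given, with no part marked. Which exons the probes lie in is not given by the array annotation.
Flt1, brightest probe: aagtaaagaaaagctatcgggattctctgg
Flt1, other tested probe: ggagggtactgccgttcctgtgtggtattt

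All 10 genes were measured well above background in all 4 channels, so the markers of the cell type were present in every pool. None of the 10 was called lower or higher in cyclopamine by limma, with adjusted p between 0.666 (Tek) and 0.974 (Eng). Over all 19398 genes tested 0.866% were called lower and 0.438% higher. None of the 10 had an unadjusted p under 0.05 either, against 9.05% of all genes tested. A filter was built from the study's limits on control intensity and fold, asking each array for a control intensity above 100 and for a 1.5-fold or larger change of one sign. Asking for both arrays is a choice made here, as the methods do not state it. Under this filter 0 of the 9 members over the intensity limit were lower or higher, against 0.630% and 0.212% of all 13661 genes over that limit. Vwf was the member under the limit.

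**Figure D1:**
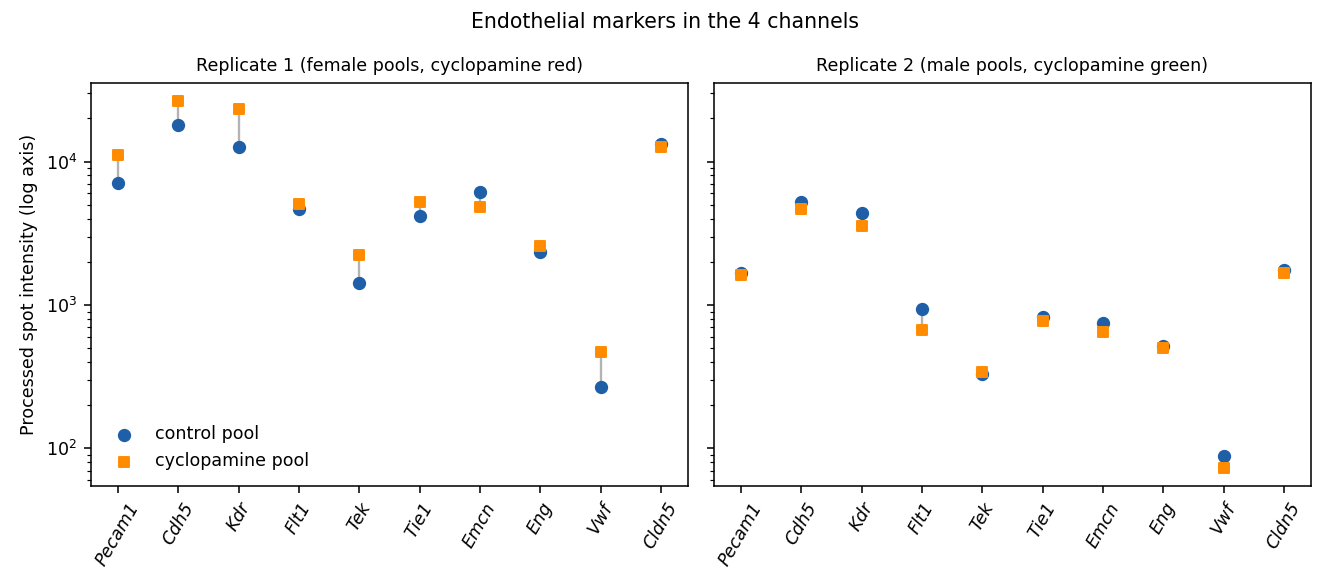
Processed spot intensity (log axis) of the brightest probe of each endothelial marker in the control pool (blue circles) and the cyclopamine pool (orange squares), 1 pool per point, with replicate 1 on the left and replicate 2 on the right. Cyclopamine lies above control for 8 of 10 genes on replicate 1 and below it for 9 of 10 on replicate 2.

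Kdr, the main signaling receptor for VEGF-A (probe at chr5:76329309-76329368), read 12580 in control and 23146 in cyclopamine on replicate 1, and 4407 and 3565 on replicate 2 (processed spot intensity, as in all readings below). The cyclopamine pool was thus the higher one on the first array and the lower one on the second. The log2 ratios were 0.88 and -0.31, with a mean of 0.29 ± 0.84 (SD, n = 2). A further Kdr probe, 1.09 kb away, read 2121 and 2865 on replicate 1 and 508 and 438 on replicate 2, with log2 ratios of 0.43 and -0.21, so both probes had the same pair of signs. The difference between the arrays in log2 ratio, 1.19 for the brightest probe, was the widest of the 10 genes.

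Flt1, the high-affinity VEGF receptor, read 4691 in control and 5057 in cyclopamine on replicate 1, and 931 and 670 on replicate 2. The pools of replicate 1 were close, and on replicate 2 the cyclopamine pool was the lower one. The log2 ratios were 0.11 and -0.47 (mean -0.18 ± 0.41, SD, n = 2). The second tested probe gave -0.12 and -0.03, with intensities of 3120 and 2874 on replicate 1 and 553 and 542 on replicate 2. The lower value on replicate 2 was therefore seen with the brightest probe, and not to the same extent with the other. On replicate 1 the signs of these probes differed, and the second probe was lower in cyclopamine on both arrays. The remaining Flt1 probe was not well above background in the control channel of either array.

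Tek, the angiopoietin receptor, read 1421 in control and 2240 in cyclopamine on replicate 1, and 330 and 341 on replicate 2. It was the one member with a cyclopamine pool above control on both arrays, though the values of replicate 2 nearly coincided (log2 ratios 0.66 and 0.05). The mean log2 ratio, 0.35 ± 0.43 (SD, n = 2), was the highest of the 10. Tie1, its partner, read 4178 and 5249 on replicate 1, and 829 and 773 on replicate 2. The log2 ratios of Tie1 were 0.33 and -0.10, so on both arrays the ratio of Tie1 lay below that of Tek.

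Among the junction genes Cdh5, the cadherin of endothelial adherens junctions (chr8:106668159-106668218), read 18047 in control and 26288 in cyclopamine on replicate 1, and 5217 and 4645 on replicate 2. Pecam1, an adhesion molecule that leukocytes and platelets carry too (chr11:106540864-106540923), read 7065 and 11095 on replicate 1, and 1678 and 1621 on replicate 2. Both genes were higher in cyclopamine on the first array and slightly lower on the second. The log2 ratios were 0.54 and -0.17 for Cdh5 and 0.65 and -0.05 for Pecam1. Cldn5, the tight junction claudin of endothelium (chr16:18778046-18778105), read 13190 and 12580 on replicate 1, and 1744 and 1662 on replicate 2. The log2 ratio of Cldn5 was -0.07 on each array, the closest match between the arrays among the 10.

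Emcn, the sialomucin of capillary and venous endothelium (chr3:137086389-137086448), read 6103 in control and 4796 in cyclopamine on replicate 1, and 755 and 650 on replicate 2. The cyclopamine pool was below control on both arrays, with log2 ratios of -0.35 and -0.21. The mean of -0.28 ± 0.09 (SD, n = 2) was the lowest of the 10 and did not pass the test (limma, adjusted p = 0.735). Eng, the co-receptor of BMP9 and BMP10 (chr2:32537268-32537327), read 2338 and 2570 on replicate 1, and 520 and 497 on replicate 2. Its pools lay close together on both arrays, with log2 ratios of 0.14 and -0.06.

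Vwf, the clotting factor stored in endothelial granules and in platelets (chr6:125636551-125636610), read 270 in control and 471 in cyclopamine on replicate 1, and 88.9 and 73.4 on replicate 2. It was the one member with a control intensity under 100, on replicate 2, and was higher in cyclopamine on the first array and lower on the second (log2 ratios 0.80 and -0.28). A further Vwf probe, 94.4 kb away, was not well above background in any channel.

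For each of the 10 genes the 95% interval of the estimated change included 0. The means of both arrays ran from -0.28 to 0.35 on the log2 scale, and the 95% intervals of limma from -0.73 (Emcn) to 0.81 (Tek). All 10 intervals lay inside a 2-fold change in either direction, and those of 3 genes, Tie1, Eng and Cldn5, lay inside a 1.5-fold change. A dye swap of 2 arrays leaves 1 residual degree of freedom, and these intervals rest mostly on the spread pooled over all probes.

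**Figure D2:**
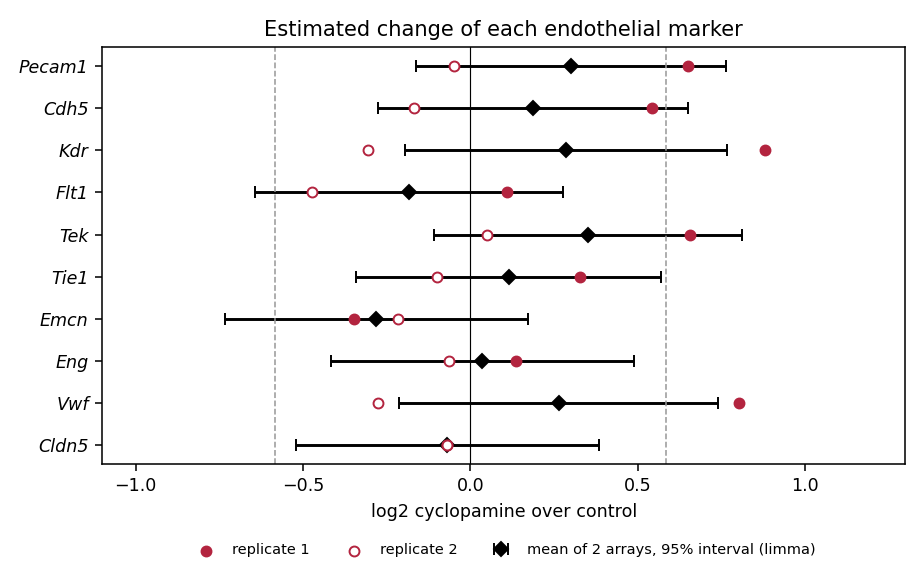
Log2 ratio of cyclopamine over control for each endothelial marker on replicate 1 (filled circles) and replicate 2 (open circles), with the mean of both arrays (diamonds) and its 95% interval from limma (bars). Dashed lines mark a 1.5-fold change. Every interval crosses 0, and both circles of Kdr and Vwf lie outside theirs.

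The arrays gave the markers different signs. On replicate 1, 8 of the 10 were higher in cyclopamine, with log2 ratios from -0.35 to 0.88 and a median of 0.44. On replicate 2, 9 of the 10 were lower, with log2 ratios from -0.47 to 0.05 and a median of -0.13. Of these 9, Pecam1 (-0.05), Eng (-0.06) and Cldn5 (-0.07) lay near 0, and each has a log2 ratio of 0 in the deposited series table. Over all genes tested the medians were -0.00 on both arrays. The 7 genes Pecam1, Cdh5, Kdr, Flt1, Tie1, Eng and Vwf were higher on replicate 1 and lower on replicate 2, a pair of signs that 21.1% of all genes tested had. Flt1 is counted here by its brightest probe, and its other tested probe was lower on both arrays. In both arrays the red channel was the brighter one for these 7 genes. On replicate 1 alone, 4 members (Pecam1, Kdr, Tek and Vwf) were at least 1.5-fold higher, against 8.48% of all genes tested, and on replicate 2 the number of members changed that far in either direction was 0. The difference between the arrays in log2 ratio had a median of 0.60 in size over the 10 genes and of 0.30 over all genes tested. The spots of a tested probe had SDs of the log2 ratio from 0.01 to 0.07, a spread that is technical alone and leaves out that between pools. With 1 array per sex and dye orientation the difference between arrays could not be tested.

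**Figure D3:**
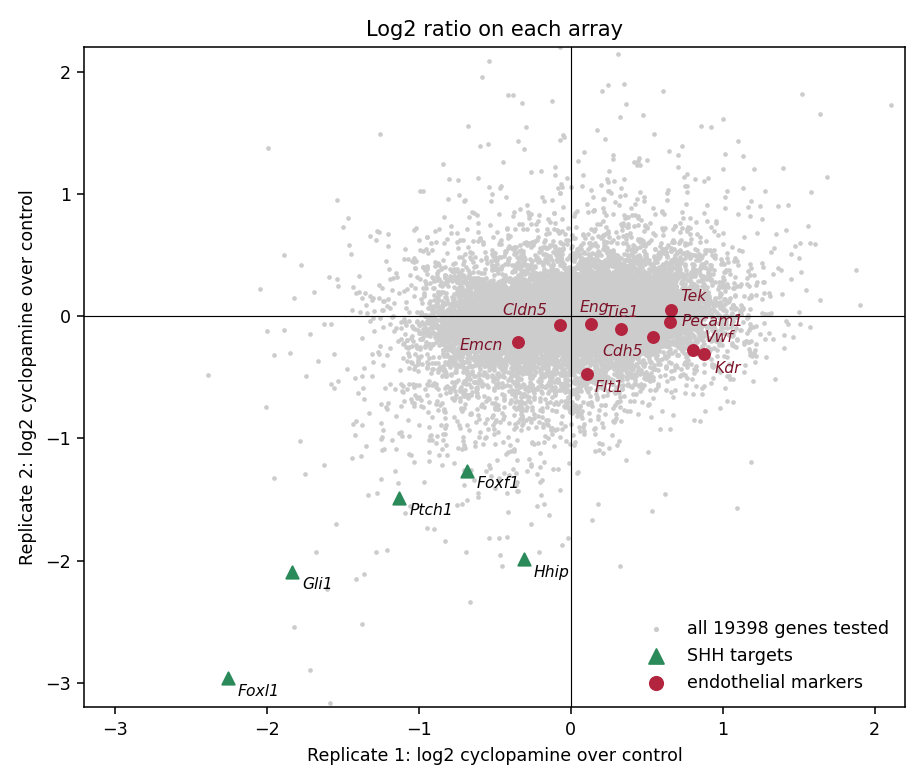
Log2 ratio of cyclopamine over control on replicate 1 (x axis) and replicate 2 (y axis) for all 19398 genes tested (gray; 10 lie outside the axes), the SHH targets (green triangles) and the endothelial markers (red circles). The 5 SHH targets lie at the lower left, whereas 7 of 10 endothelial markers lie to the right of 0 and below it.

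The log2 ratio on replicate 1 moved with the genomic length of the gene. Over the 16013 tested genes with a length in the RefSeq table, Spearman's rho across genes was 0.44 on replicate 1 and 0.04 on replicate 2; genes are not independent replicates. The endothelial markers are long genes: 8 of the 10 exceed the median length of 21.4 kb, and their own median is 53.7 kb, from 1.42 kb for Cldn5 to 165 kb for Flt1. With the trend on length removed from each array, the members' median log2 ratio was 0.34 on replicate 1 and -0.16 on replicate 2. The combination of higher on replicate 1 and lower on replicate 2 was then held by 6 members, against 21.3% of all genes tested. These were not all among the genes that held it before. Flt1 (-0.20 and -0.46) and Eng (-0.005 and -0.10) no longer had it, and Cldn5 (0.26 and -0.02) had it only after the removal. Over the 10 markers themselves Spearman's rho of log2 ratio on length was 0.22 on replicate 1 and -0.28 on replicate 2, as a description of 10 genes on shared arrays. On replicate 1 the long genes Vwf (134 kb) and Tek (136 kb) had log2 ratios of 0.80 and 0.66 and the short Cldn5 -0.07, whereas the long Flt1 and Emcn (90.0 kb) had 0.11 and -0.35.

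**Figure D4:**
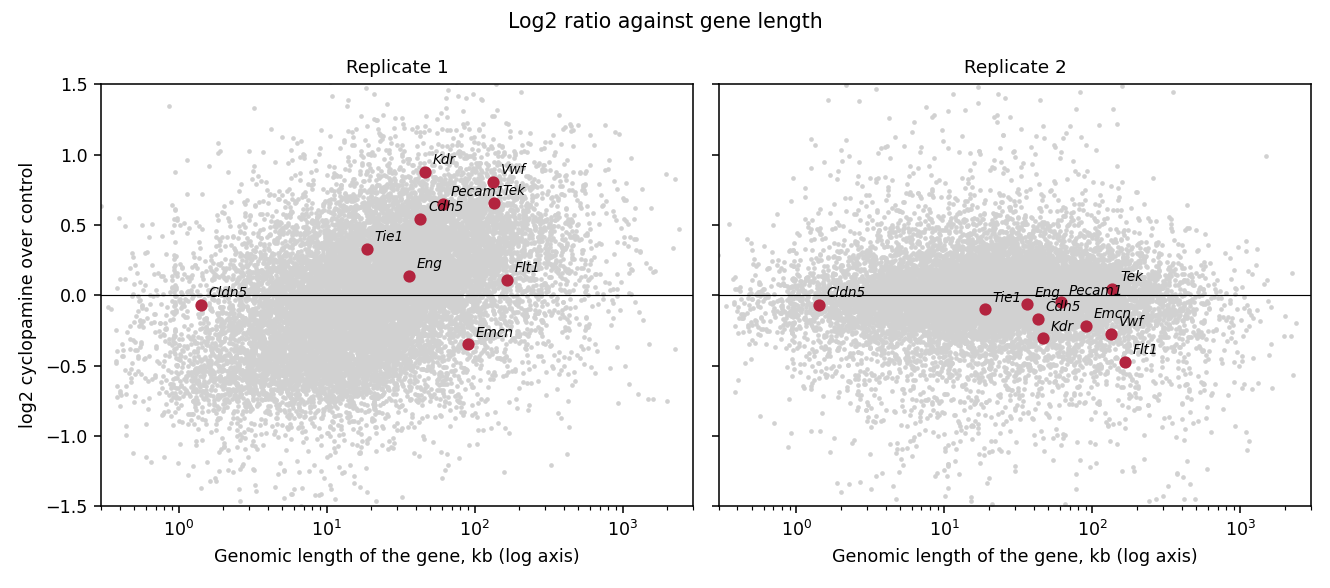
Log2 ratio of cyclopamine over control against the genomic length of the gene (kb, log axis) on replicate 1 (left) and replicate 2 (right), for the tested genes with a known length (gray; 107 of 16013 lie outside the axes) and the endothelial markers (red). The gray cloud rises with length on replicate 1 (Spearman's rho 0.44) and is level on replicate 2 (0.04).

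The receptors act with ligands and partners, of which 14 were followed and 12 were bright enough to be tested. None of the 12 was called in either direction. The mean log2 ratios ran from -0.36 for Vegfb, a ligand of FLT1, to 0.54 for Bmpr2, a receptor for BMP ligands. Bmpr2 read 6049 in control and 13266 in cyclopamine on replicate 1, and 3761 and 3634 on replicate 2, again with a high value on the first array alone. Gdf2 and Bmp10, which encode BMP9 and BMP10, were not tested. Neither probe was well above background on replicate 2. The median of the 12 was 0.08 on replicate 1 and -0.17 on replicate 2.

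A further 19 genes of blood vessel endothelium were all tested, and none was called. Their medians were 0.15 on replicate 1 and -0.13 on replicate 2. Of the 19, 9 were higher on the first array and lower on the second, beside 21.1% of all genes tested. Gpihbp1, which anchors lipoprotein lipase on capillary endothelium, had the lowest mean log2 ratio (-0.61 on replicate 1 and -0.38 on replicate 2, limma adjusted p = 0.462). Ptprb, the endothelial phosphatase that acts on TEK, had the highest (1.08 and -0.24, adjusted p = 0.627). Of 13 transcription factors of endothelium none was called. Their means ran from -0.38 for Lyl1 to 0.23 for Fli1, an ETS factor, and their medians were -0.13 and -0.06 on replicates 1 and 2. Of the 13, 4 were higher on the first array and lower on the second, and 7 were lower on both.

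Markers of vessel types and states gave no call either. The 8 arterial genes had means from -0.21 (Sema3g) to 0.25 (Dll4, a Notch ligand), and the 3 venous genes from -0.17 (Nr2f2, a transcription factor of veins) to 0.22 (Ephb4). Of the 5 lymphatic genes 4 were on the array by name. They ran from -0.52 for Lyve1, a hyaluronan receptor, to 0.44 for Prox1, the transcription factor that sets lymphatic identity, whose intensities of 18.4 and 35.0 on replicate 1 and 9.52 and 9.17 on replicate 2 were low. Lyve1 read 1061 in control and 957 in cyclopamine on replicate 1, and 222 and 119 on replicate 2 (limma, adjusted p = 0.434). The 7 genes of activated or sprouting endothelium ran from -0.39 (Adm, adrenomedullin) to 0.33 (Sele, E-selectin).

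**Figure D5:**
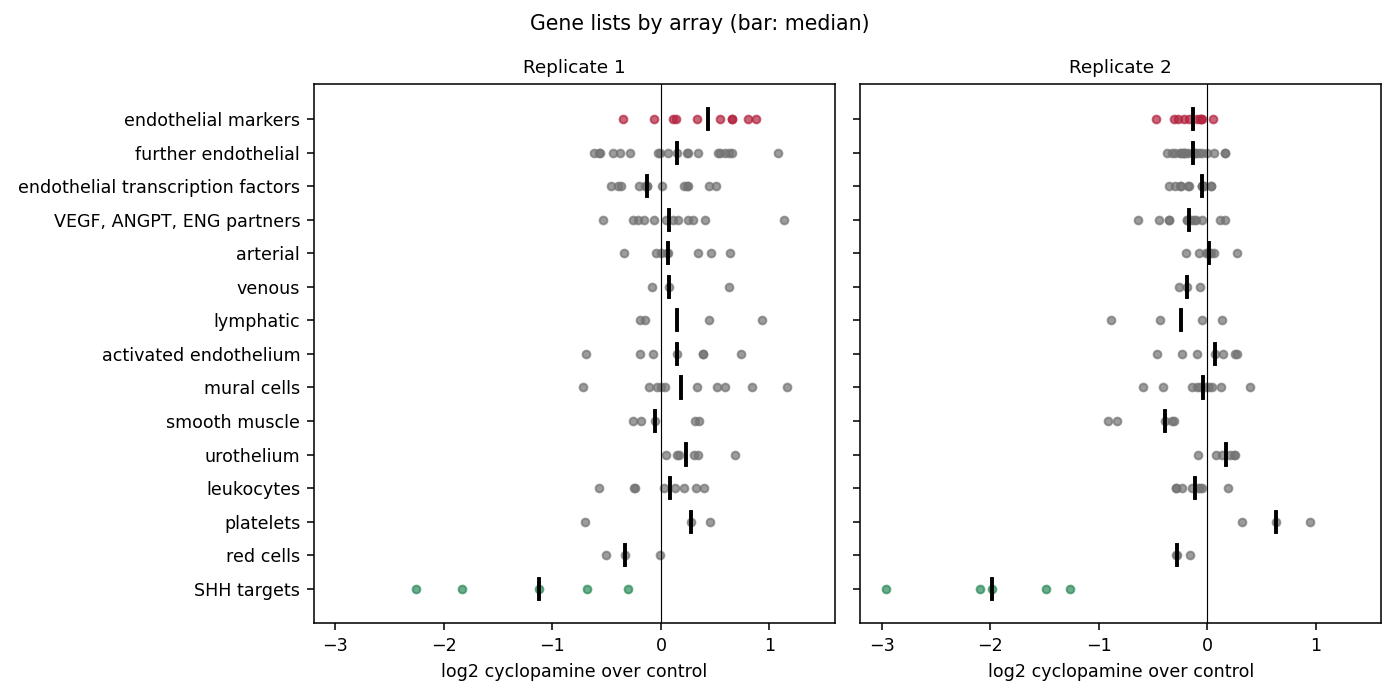
Log2 ratio of cyclopamine over control for every tested gene of each list on replicate 1 (left) and replicate 2 (right), 1 point per gene, with the list median as a bar. The endothelial markers (red) have a median of 0.44 on replicate 1 and -0.13 on replicate 2, and the SHH targets (green) lie below 0 on both arrays.

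Other cells of the explants were read beside the endothelial markers, since some share them. Of the 8 leukocyte genes, all tested, none was called; their summed intensity was 26868 in control and 26824 in cyclopamine on replicate 1, and 5602 and 5185 on replicate 2. The summed intensity of the endothelial markers was 69883 and 93492 on replicate 1, and 16499 and 14499 on replicate 2. Kdr and Cdh5 were among its large terms on replicate 1, where Emcn and Cldn5 were lower in cyclopamine. Leukocyte means ran from -0.43 (Aif1) to 0.20 (Adgre1, the F4/80 antigen). Higher on replicate 1 and lower on replicate 2 were 4 of the 8 leukocyte genes, beside 21.1% of all genes tested. Of the 5 platelet genes 3 were tested and none was called, and Gp1ba and Gp9, which define platelets, were not well above background. Platelet sums were 27768 and 29249 on replicate 1, and 5586 and 7772 on replicate 2, and the means ran from 0.12 (Ppbp) to 0.54 (Itga2b). Ppbp had log2 ratios of -0.70 on replicate 1 and 0.95 on replicate 2. The Itga2b intensities were low, at 54.3 and 74.3 on replicate 1 and 10.6 and 16.4 on replicate 2. The part of leukocytes or platelets in the values of Pecam1 and Vwf was not tested.

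Red cells, which mark blood held in vessels, had 3 of 4 genes tested and none called. The means of the 3 ran from -0.39 (Hbb-bt, a beta globin) to -0.15 (Alas2). The sums over the 4 genes were 49524 in control and 38636 in cyclopamine on replicate 1, and 5332 and 4690 on replicate 2. Slc4a1 was not tested because it was not well above background on replicate 2.

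In the wall around the vessels none of the 10 mural genes, 5 smooth muscle genes and 6 urothelial genes was called. Mural means ran from -0.56 for Ndufa4l2 to 0.58 for Pdgfrb, the receptor by which pericytes answer endothelial PDGFB. Pdgfrb read 19028 in control and 42550 in cyclopamine on replicate 1, and 7404 and 7349 on replicate 2. Mural sums were 72828 and 111214 on replicate 1, and 21656 and 21242 on replicate 2, a log2 ratio of the sums of 0.61 and -0.03, with Pdgfrb among the large terms on replicate 1. Of the 10 mural genes 4 were higher on replicate 1 and lower on replicate 2, beside 21.1% of all genes tested. Smooth muscle means ran from -0.55 (Cnn1) to 0.00 (Smtn), with sums of 299319 and 291239 on replicate 1, and 83777 and 52905 on replicate 2. Urothelial means ran from -0.02 (Upk2, a uroplakin) to 0.47 (Trp63), with sums of 251393 and 286048, and 62020 and 66964. Over these 13 lists other than the markers and the SHH targets, 0 of 101 tested entries were called and 10 had an unadjusted p under 0.05, beside 9.05% of all genes tested.

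The SHH targets were the list that fell. All 5 were called lower, against 0.866% of all genes tested, and 4 of the 5 passed the filter on both arrays. The exception was Hhip, whose brightest probe had log2 ratios of -0.31 and -1.99. That probe missed the fold limit on replicate 1 but is past it in its mean. The paper lists Hhip among its most reduced transcripts under cyclopamine. Foxl1, a forkhead factor of the mesenchyme, had a mean log2 ratio of -2.61, Hhip, which binds and holds back SHH, -1.15, and Foxf1 -0.98. Gli1, at -1.96, read 7771 in control and 2182 in cyclopamine on replicate 1, and 1236 and 290 on replicate 2, so the control pool was the higher one on both arrays. This list was chosen for its response to the treatment and serves as a check of it.

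Outside the lists, 525 of 19282 tested genes (2.72%) had log2 ratios within 0.1 of the members' median pair (0.44 and -0.13) on both arrays. The nearest were Crocc2 (0.43 and -0.14), Ttyh3 (0.44 and -0.14) and Arhgef7 (0.43 and -0.13). The likeness rests on 2 arrays.

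RefSeq promoters of build GRCm38.p6, windows of 300 bases around gene starts, were given for 7 of the 10 markers: Kdr, Flt1, Tek, Tie1, Emcn, Eng and Cldn5. The letters AGGAAG, which hold the core read by ETS factors such as ERG and FLI1, were searched on both strands. They were found in 4 of the 7 (Emcn, Eng, Flt1 and Tie1) and in 35.1% of all 27025 promoters. The variant CGGAAG, which shares its last 5 letters with the first, was found in 1 of the 7 (Tie1) and in 17.2% of all promoters. A match of letters is no proof of a site, and the markers with and without a match had log2 ratios of both signs on replicate 1.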

How the data were processed

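Two-color arrays of a dye swap pair were analyzed, with groups and dyes from the sample labels. The authors' deposited files hold background-subtracted, dye-balanced spot intensity values from the Agilent Feature Extraction software (the file headers name version 12.2.0.7, the submitters' processing notes 10.7.3.1). The deposited log10 ratio, red over green, was not turned for the swap and served as a check. The deposited series table holds a score per probe, a signed fold change already turned. Flags per spot for background and outliers are other deposited output.

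Control spots were left out, as were outlier spots (2.89% of the non-control spots on replicate 1 and 3.15% on replicate 2). No spot was saturated. Log2 intensities were averaged over the spots of a probe, of which there were at most 4. Probes were named through RefSeq accessions (28322 of 39428) or by the array, and positions are mm9. limma 3.58.1 in R 4.3.3 (no intercept, dye sign as design) tested 25975 probes with at least 0.5 of their spots well above background in 1 group on both arrays. Benjamini-Hochberg adjustment ran over these probes, with a limit of 0.05; it was tested on simulated data. Counts over all genes use the brightest probe, and the named genes are the 10 members, called genes, the highest and lowest mean of each list and the 3 genes nearest to the members in ratio; list genes not above background were named after their values were seen. The number of arrays limits the precision, and p-values measure only the spread between these 2 arrays. The members and lists were chosen with earlier results of these data known. An item of the wider lists is not reported here.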

Additional observations from a re-analysis of the deposited data

Results flagged for a closer look

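The log2 ratios of 7 endothelial markers had opposite signs on the array of female pools (replicate 1) and the array of male pools (replicate 2). For Flt1 this rests on the brightest probe, as the other tested probe was lower in cyclopamine on both arrays (-0.12 and -0.03). Replicate 1 minus replicate 2, the difference in log2 ratio was 1.19 for Kdr, 1.08 for Vwf, 0.71 for Cdh5, 0.70 for Pecam1, 0.58 for Flt1, 0.43 for Tie1 and 0.20 for Eng. The difference between the medians of the 10 markers was 0.57. None of these differences was tested, since there is 1 array per sex and the dyes were swapped with it.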

How the results depend on the processing

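No endothelial marker was called, and no gene of the other lists beside the SHH targets, under any of 8 alternatives with a test: normexp with an offset of 50 or 10, the series table values, the trend on gene length removed, the mean over all probes of a gene, no filter on dim probes, an intensity trend in the prior, and the 4 channels as separate samples. The smallest adjusted p of a marker over all settings was 0.433. The last of these drops the replicate block, that is the pairing of the pools on an array, and also called 0 markers. Of 80 mean log2 ratios of single markers under these alternatives, 78 kept their direction. With the length trend removed Eng turned to -0.054 and Cldn5 to 0.12, both within their error. The intensity and fold filter passed 0 markers at control intensities over 200 or 50, with a common 75th percentile, at 2-fold, and on the mean ratio; with 1 array left out it passed 0 to 4 (4 higher without replicate 2, against 8.06% of all genes over the limit). The median log2 ratio of the markers, 0.15, ran from 0.11 to 0.17, and with 1 array left out from -0.13 (without replicate 1) to 0.44. Higher on replicate 1 and lower on replicate 2 held for 5 to 7 markers, not always the same ones. This count and that of the other lists were added after seeing the data. No limma test was possible with 1 array left out. Low intensity limits the reading of Vwf, whose control read 270 on replicate 1 and 88.9 on replicate 2. Relative to the 75th percentile of control on its own array, Vwf was at 0.08 on replicate 1 and 0.14 on replicate 2.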
